A study of Mus musculus with 12 samples.

Results

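The NRF2 antioxidant and NADPH-supplying genes are described here as 10 genes chosen by symbol: the regulator pair Nfe2l2 and Keap1, and Nqo1, Txnrd1, Srxn1, Prdx1, Gsr, G6pdx, Pgd and Osgin1. Each symbol stood on 1 row of a count table of 56350 genes, and all 10 genes were among the 16484 genes tested. The lowest single count of any of the 10 genes was 151, for Osgin1, so none entered the test through 1 condition alone. The table came from mRNA sequencing of MPC2 cells, a conditionally immortalised mouse mesenchymal line that is 1 clone (clone 2). MSC libraries came from undifferentiated cells grown at 33 °C, and osteocyte libraries from cells held for 3 weeks at 37 °C in medium with beta-glycerophosphate and ascorbic acid. Each cell type received 50 µM FG-4592 (Roxadustat), an inhibitor of the HIF prolyl hydroxylases, or its solvent DMSO (vehicle) for 48 hours, with 3 libraries in each of the 4 conditions. Temperature, medium and time in culture changed together with differentiation, so their contributions cannot be told apart, and neither can fewer cells of a type and less RNA per cell.

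NRF2, the protein of Nfe2l2, is a transcription factor that KEAP1 holds in the cytoplasm and hands to a ubiquitin ligase. When electrophiles or oxidants modify KEAP1, NRF2 escapes, pairs with a small MAF protein and binds antioxidant response elements near its targets. NRF2 is therefore regulated to a large extent at the protein level, which RNA counts do not measure. Its classical targets reduce quinones, regenerate thioredoxin, peroxiredoxin and glutathione, and supply the NADPH that these reactions consume.

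Library totals ran from 52829185 to 68108470 counts, and a read pair was counted for every gene that it overlapped, so a total is not the number of pairs sequenced. The totals were also above the read number per library in the study's methods, and whether multiple overlap accounts for all of that gap was not tested. Levels are given as CPM, counts scaled by the library size after trimmed mean of M-values (TMM) adjustment, values after ± are SDs over the 3 libraries of a condition, and FDR is the Benjamini-Hochberg adjusted p of edgeR's quasi-likelihood test over all genes tested. A gene passed the test at an FDR under 0.05, and both cutoffs also require an absolute log2 fold change above 1. Of 5 known HIF targets, 3 rose with FG-4592 in both cell types. The glucose transporter gene Slc2a1 rose by 3.36 (log2) in MSCs and 3.50 in osteocytes, Vegfa by 1.24 and 2.71, and Ankrd37 by 5.79 and 7.26. Car9 and Egln3 had a mean of at most 3.33 counts in both MSC conditions and did not pass there (FDR 0.746 and 0.661), while both passed in osteocytes (FDR 3.09e-05 and 1.16e-07). Of the osteocyte markers, Phex was at 57.6 ± 6.33 CPM in vehicle osteocytes and 0.977 ± 0.116 in vehicle MSCs (SD, n = 3), and Dmp1 at 11.2 ± 2.30 and 1.19 ± 0.622, while Sost and Mepe stayed at or below the floor of 3 counts in all groups. Of the 7 osteocyte markers tested, 3 were higher and 2 lower in vehicle osteocytes than in vehicle MSCs, where 26% of all genes were higher and 24.9% lower.

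The sequences below are shown because the antioxidant response element is the site through which NRF2 acts. Windows from 250 bases before to 50 bases after the annotated starts were taken from RefSeq (GRCm38.p6). Of the 10 genes, 9 had a window (12 windows in all), and Gsr was not in the window table. The core TGACNNNGC, searched on both strands, lay in a window of 6 of these 9 genes, against 14% of the 27025 genes in the table. Counted by window, it lay in 6 of the 12, against 12.4% of the 32851 windows in the table. Each line gives the match in capitals with 10 bases on either side, read 5′ to 3′ on the strand that carries the core.
Nfe2l2, chr2:75704885-75704913, minus strand: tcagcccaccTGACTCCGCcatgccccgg
Txnrd1, chr10:82859104-82859132, minus strand: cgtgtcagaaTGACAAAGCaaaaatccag
Srxn1, chr2:152105542-152105570, minus strand: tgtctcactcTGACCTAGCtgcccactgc
G6pdx, chrX:74428919-74428947, plus strand: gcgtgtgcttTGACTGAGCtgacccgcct
Pgd, chr4:149166061-149166089, minus strand: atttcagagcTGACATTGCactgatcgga
Prdx1, chr4:116685456-116685484, minus strand: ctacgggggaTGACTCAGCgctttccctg

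The matches of Nfe2l2 and Prdx1 lay outside the annotated gene, 240 and 133 bases before the RefSeq start, and that of Nfe2l2 also fell in an exon of the neighbouring transcript E030042O20Rik. The Txnrd1 match lay in an intron of the gene, 92 bases before a later annotated start. The Srxn1, G6pdx and Pgd matches lay in exons of the counted gene model, at 28 bases after, 57 bases before and 3 bases after a RefSeq start. The windows of Nqo1, Keap1 and Osgin1 did not hold these letters. The HIF core, ACGTG or GCGTG on either strand, was in a window of 6 of the 9 genes against 46.7% of all genes. A match of letters is not a measurement of binding.

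The first question was what FG-4592 did to these genes in MSCs. Of the 10 genes, 8 rose, 0 fell and 2 did not pass, where 17.6% of all genes tested rose and 20.4% fell. Nqo1, Srxn1, Pgd and Gsr rose past both cutoffs, as 4.12% of all genes did, and their own rises were 2.51- to 3.08-fold. In 9 of the 10 genes every FG-4592 library lay above every vehicle library, which held for 23.2% of all genes. The median log2 fold change was 0.83 over the 10 genes and −0.045 over all genes tested.

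The same question was put to osteocytes. There 6 of the 10 genes rose, 1 fell and 3 did not pass, where 21.9% of all genes rose and 22% fell. Srxn1 alone rose past both cutoffs, as 6.25% of all genes did, with a log2 fold change close to 1. FG-4592 and vehicle libraries did not overlap in the 6 genes that rose, as in 26.1% of all genes. The median log2 fold change was 0.44, against 0.0015 over all genes. Markers of the cell type itself moved with the treatment. Of 7 osteocyte markers tested, 1 rose and 5 fell in osteocytes, 4 of them past both cutoffs, with Phex going from 57.6 ± 6.33 to 2.83 ± 0.871 CPM and Dmp1 from 11.2 ± 2.30 to 2.06 ± 0.582. In MSCs 0 rose and 4 fell, where 17.6% and 20.4% of all genes did. The part of this in the responses of the 10 genes was not tested.

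**Figure D1:**
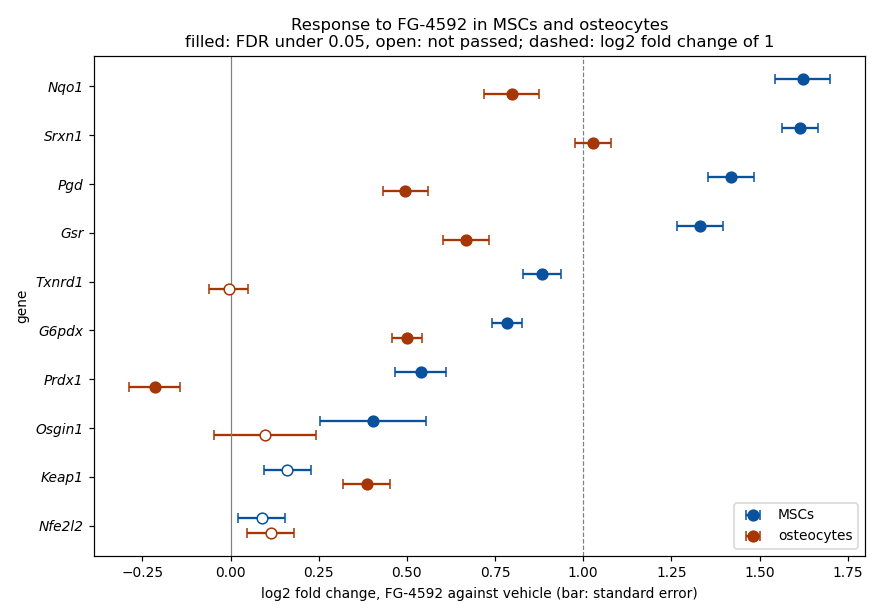
Log2 fold change of FG-4592 against vehicle (horizontal axis) for each of the 10 genes (vertical axis) in MSCs (blue) and osteocytes (brown), with standard errors from the fit on 12 libraries; filled points had an FDR under 0.05 and the dashed line marks a log2 fold change of 1. Nqo1, Srxn1, Pgd and Gsr lie right of the dashed line in MSCs, only Srxn1 does in osteocytes, and Prdx1 lies left of 0 in osteocytes.

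The difference between the responses was tested as its own term in the same fit. It was negative in 7 of the 10 genes and positive in 0, against 11% and 13.3% of all genes tested. Among the 7, Prdx1 rose in MSCs and fell in osteocytes. The largest differences were of Pgd, −0.92 (SE 0.0902, FDR 2.1e-06), Txnrd1, −0.89 (SE 0.0776, FDR 6.07e-07), and Nqo1, −0.82 (SE 0.108, FDR 4.34e-05). Prdx1 followed at −0.75, Gsr at −0.66, Srxn1 at −0.59 and G6pdx at −0.28, each past the test. None of these was negative past both cutoffs (an FDR under 0.05 and a size above 1), as 1.07% of all genes were. Keap1 (0.22, FDR 0.0997), Osgin1 (−0.31, FDR 0.323) and Nfe2l2 (0.02, FDR 0.889) did not pass. The median difference was −0.62 over the 10 genes and 0.048 over all genes. These differences use the same 12 libraries as the responses themselves, so they are not further evidence for either response.

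**Figure D2:**
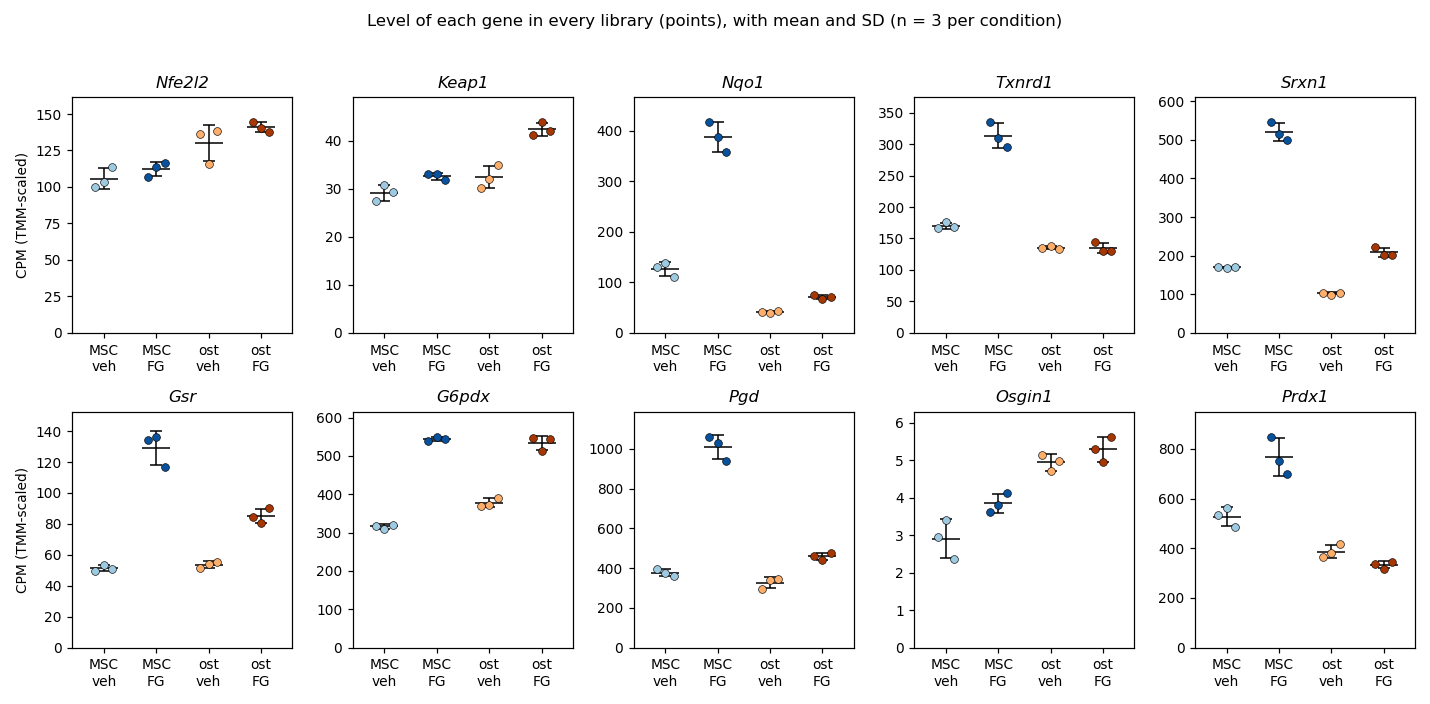
CPM of each of the 10 genes in every library (points, 3 per condition; vertical axes start at 0), with the mean (long bar) and SD; veh is vehicle, FG is FG-4592 and ost is osteocyte. Nqo1 runs from 39.88 CPM in vehicle osteocytes to 417.5 in MSCs under FG-4592, whereas Nfe2l2 stays between 99.94 and 144.5 in all 12 libraries.

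The regulators changed little in MSCs. Nfe2l2 (chr2:75675513-75704641, minus strand, mm10), which encodes NRF2 itself, stood at 99.94, 103.3 and 113.6 CPM in vehicle MSCs and at 106.8, 113.9 and 116.2 in treated MSCs. In osteocytes it stood at 136.5, 115.9 and 138.2 CPM in vehicle and at 144.5, 140.6 and 137.6 under FG-4592. The treated and untreated libraries overlapped in both cell types, and all osteocyte libraries of a treatment lay above the MSC libraries of that treatment. The log2 fold change with FG-4592 was 0.09 (SE 0.0667, FDR 0.329) in MSCs and 0.11 (SE 0.0665, FDR 0.188) in osteocytes, so no change was detected. Between cell types Nfe2l2 was higher in osteocytes by 0.30 in vehicle (FDR 0.00125) and by 0.33 under FG-4592 (FDR 0.00055).

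Keap1 (chr9:21229730-21239361, minus strand) encodes the adaptor that marks NRF2 for destruction. Its levels in MSCs were 27.45, 30.86 and 29.26 CPM in vehicle and 33.06, 33.07 and 31.83 under FG-4592. In osteocytes they were 30.27, 32.14 and 34.97 CPM in vehicle and 41.2, 43.95 and 42.1 under FG-4592. The treated osteocytes stood above every other library, and the other 3 conditions lay close together. Keap1 thus rose in osteocytes, by 0.39 (SE 0.0667, FDR 0.000174), and its MSC value of 0.16 (SE 0.0671, FDR 0.0709) did not pass. It passed in 2 of 15 alternatives, without MSC vehicle replicate 2 (FDR 0.0275) and with only the MSC libraries fitted (FDR 0.0261), and its difference in response passed in 1 of 20, without osteocyte vehicle replicate 3 (FDR 0.0385). Under FG-4592 it was higher in osteocytes than in MSCs by 0.38 (FDR 0.000148). Keap1 shared 510 exonic bases with Gm16754 on the opposite strand, a transcript with 0 to 110 counts, and the stated counting options name no strand.

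Nqo1 (chr8:107388225-107403206, minus strand), the NAD(P)H quinone reductase that serves as the standard readout of NRF2 activity, spanned the widest relative range of the 10 genes. In MSCs it stood at 129.5, 138.1 and 110.2 CPM in vehicle and at 417.5, 387.4 and 357.9 under FG-4592. Vehicle osteocytes had 40.41, 39.88 and 42.71 CPM and treated osteocytes 75.7, 67.45 and 70.67. No pair of conditions overlapped, and treated osteocytes still stood below untreated MSCs. Nqo1 rose by 1.62 (SE 0.0773, FDR 8.84e-11) in MSCs and by 0.80 (SE 0.078, FDR 4.05e-07) in osteocytes. In vehicle it was lower in osteocytes by −1.62 (SE 0.0788, FDR 6.02e-11), and under FG-4592 by −2.44 (SE 0.0797, FDR 2.91e-13).

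The thioredoxin arm showed 3 different patterns. Txnrd1 (chr10:82833951-82897712, plus strand), the cytosolic thioredoxin reductase, stood at 167, 175.5 and 167.6 CPM in vehicle MSCs and rose to 335.2, 310 and 295.6 with treatment. In osteocytes it stood at 135.2, 137.4 and 132.7 CPM in vehicle and 143.8, 129.6 and 130.3 under FG-4592. The MSC groups were far apart, and the osteocyte groups overlapped. Its rise in MSCs was 0.88 (SE 0.055, FDR 2.42e-09), and its value in osteocytes was −0.01 (SE 0.055, FDR 0.949).

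Srxn1 (chr2:152105516-152111376, plus strand) encodes sulfiredoxin, which repairs hyperoxidised peroxiredoxins. It stood at 170.3, 167.7 and 171.1 CPM in vehicle MSCs and 546, 514.4 and 498.7 in treated MSCs. The osteocyte values were 103.6, 99.27 and 103.7 CPM in vehicle and 222.6, 201 and 201.3 under FG-4592. The conditions did not overlap, and treatment brought osteocytes above untreated MSCs. Srxn1 rose by 1.61 (SE 0.052, FDR 6.6e-13) in MSCs and by 1.03 (SE 0.0516, FDR 1.25e-10) in osteocytes, where leaving out single libraries gave 0.98 to 1.06, on both sides of the fold cutoff.

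Prdx1 (chr4:116685544-116700822, plus strand), a peroxide-reducing peroxiredoxin and a substrate of sulfiredoxin, moved in opposite directions. In MSCs it stood at 533.2, 562.5 and 486.4 CPM in vehicle and 848.7, 751.2 and 699 under FG-4592. In osteocytes it stood at 364.2, 380.5 and 416 CPM in vehicle and 338.3, 317.3 and 344.5 under FG-4592. All treated MSC libraries were above the vehicle libraries, and all treated osteocyte libraries below theirs. It rose by 0.54 (SE 0.0723, FDR 1.79e-05) in MSCs and fell by 0.21 on the log2 scale (SE 0.0723, FDR 0.024) in osteocytes. The fall did not pass without osteocyte vehicle replicate 3 (FDR 0.113) or without osteocyte FG-4592 replicate 2 (FDR 0.0928), but the difference between the responses did not depend on a single library. Prdx1 transcripts matched the pseudogenes Gm21399 and Gm7204 over 597 bases at 98.33% and 97.49% identity, and uniquely mapped pairs were counted, so part of its reads may be lost or shared.

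Gsr (chr8:33652523-33698163, plus strand), glutathione reductase, spends NADPH to restore reduced glutathione. It stood at 49.53, 53.43 and 51.09 CPM in vehicle MSCs and 134.5, 136.3 and 116.6 in treated MSCs. Vehicle osteocytes had 51.28, 53.83 and 55.61 CPM and treated osteocytes 84.36, 80.89 and 90.07. The untreated cell types overlapped, and the treated cell types were apart. Gsr rose by 1.33 (SE 0.0646, FDR 1.09e-10) in MSCs and by 0.67 (SE 0.0641, FDR 3.26e-07) in osteocytes. Its vehicle difference between cell types was 0.06 (FDR 0.46), and under FG-4592 it was lower in osteocytes by −0.60 (FDR 5.73e-07).

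The oxidative pentose phosphate pathway makes NADPH at 2 steps, catalysed by the products of G6pdx and Pgd. G6pdx (chrX:74409483-74429194, minus strand), glucose-6-phosphate dehydrogenase, stood at 318.5, 309 and 320.5 CPM in vehicle MSCs and 539.4, 549.7 and 543.7 in treated MSCs. Vehicle osteocytes had 369.4, 372.9 and 391.2 CPM and treated osteocytes 546.5, 513 and 543.5. The treated groups of both cell types overlapped, while the vehicle osteocytes lay above the vehicle MSCs. G6pdx rose by 0.78 (SE 0.0433, FDR 5.33e-10) in MSCs and 0.50 (SE 0.0431, FDR 9.51e-08) in osteocytes, and the cell types under FG-4592 differed by −0.03 (SE 0.0429, FDR 0.628). It shared 418 exonic bases with Ikbkg on the opposite strand, which had 4658 to 15261 counts, so pairs in the shared stretch were counted for both genes.

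Pgd (chr4:149149991-149166771, minus strand), 6-phosphogluconate dehydrogenase, had 394.5, 377.8 and 361.2 CPM in vehicle MSCs and 1061, 1029 and 940.8 in treated MSCs. It had 293.4, 341.3 and 343.8 CPM in vehicle osteocytes and 462.5, 441.5 and 475.6 in treated osteocytes. The treated MSCs stood far above all other libraries. Pgd rose by 1.42 (SE 0.0648, FDR 5.09e-11) in MSCs and by 0.50 (SE 0.0638, FDR 8.73e-06) in osteocytes, the largest difference in response among the 10 genes. In vehicle it was lower in osteocytes by −0.21 (FDR 0.0109), a call that was lost without MSC vehicle replicate 1 (−0.15, FDR 0.1), MSC vehicle replicate 2 (FDR 0.0659) or osteocyte vehicle replicate 1 (−0.10, FDR 0.144).

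Osgin1 (chr8:119434124-119446256, plus strand), an oxidative stress-induced growth inhibitor, was the weakest in expression. Its MSC levels were 2.961, 3.407 and 2.373 CPM in vehicle and 3.625, 3.799 and 4.138 under FG-4592, and its osteocyte levels 5.15, 4.709 and 4.977 in vehicle and 5.296, 4.955 and 5.629 under FG-4592. Osteocytes lay above MSCs in every library. The rise in MSCs, 0.40 (SE 0.15, FDR 0.0438), was the least secure of the calls and did not pass in 10 of 15 alternatives (FDR 0.054 to 0.138, and 0.0144 to 0.138 over all 15), among them leaving out any of MSC vehicle replicates 1 and 3 or of the 3 treated MSC libraries. The osteocyte value was 0.10 (SE 0.145, FDR 0.635).

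The second question was how the cell types differed. In vehicle, 3 of the 10 genes were higher in osteocytes (Osgin1 0.76, Nfe2l2 0.30, G6pdx 0.26) and 5 lower (Nqo1 −1.62, Srxn1 −0.73, Prdx1 −0.45, Txnrd1 −0.33, Pgd −0.21), where 26% of all genes were higher and 24.9% lower. Only Nqo1 was lower past both cutoffs, as were 6.08% of all genes. Under FG-4592, 3 were higher (Osgin1 0.46, Keap1 0.38, Nfe2l2 0.33) and 6 lower, where 30.5% of all genes were higher and 25.3% lower. Of the 6, Nqo1 (−2.44), Srxn1 (−1.32), Txnrd1 (−1.22), Prdx1 (−1.20) and Pgd (−1.14) were past both cutoffs, as were 5.64% of all genes, and Gsr was at −0.60. The call of Osgin1 under FG-4592 was lost without MSC FG-4592 replicate 1 (FDR 0.0511) or osteocyte FG-4592 replicate 3 (FDR 0.0551). Together the 10 genes held 0.192 to 0.199% of all counts in vehicle MSCs, 0.357 to 0.393% in treated MSCs, 0.156 to 0.168% in vehicle osteocytes and 0.184 to 0.197% in treated osteocytes.

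Markers of other cell types moved with differentiation, and some also with FG-4592. The summed level of 5 adipocyte markers (Adipoq, Plin1, Cidec, Fabp4 and Lep) was 11 to 12.4 CPM in vehicle MSCs and 6.36 to 7.66 in treated MSCs, and 1570 to 2180 in vehicle and 1810 to 2180 in treated osteocytes, with Lep at or under 3 counts throughout. With FG-4592 in osteocytes, 2 of the 4 tested rose and 0 fell, where 21.9% and 22% of all genes did. Fabp4 went from 104.2 ± 10.1 to 238.1 ± 48.9 CPM and Cidec from 40.9 ± 7.03 to 63.1 ± 2.68. The summed level of 6 muscle and cartilage markers was 9.54 to 10.5 CPM, 4.08 to 5.26, 65.1 to 84.2 and 260 to 351 in the same order, with Myod1, Myog and Acan at or under 3 counts. In osteocytes that sum was mostly Col2a1, a cartilage collagen gene, at 62.7 ± 9.73 CPM in vehicle and 294 ± 46.4 under FG-4592, against 0.771 ± 0.313 in vehicle MSCs. The muscle gene Des was lower in vehicle osteocytes than in vehicle MSCs, at 5.00 ± 0.662 against 8.03 ± 0.565 CPM (−0.68, FDR 0.00148). The part of these markers in the differences between cell types and in the responses to FG-4592 was not tested. Blood and vessel markers were near 0, with a summed level of 1.08 to 2.08 CPM over 7 genes, and 7 mesenchymal markers summed to 1340 to 1460 CPM in MSCs and 1570 to 1870 in osteocytes.

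Levels can be compared between genes only per length, here as CPM per kilobase of the exonic length in the table. On that scale Prdx1 was highest in vehicle MSCs (173 ± 12.6, SD, n = 3), followed by G6pdx (103 ± 2.02) and Nqo1 (81.1 ± 9.21), and Osgin1 was lowest (1.09 ± 0.194). Under FG-4592 the mean of Nqo1 per kilobase in MSCs, 249.6 ± 19.2, came within the spread of Prdx1, 252 ± 25. Srxn1 (184 ± 8.55) and G6pdx (177 ± 1.71) came next. In vehicle osteocytes Prdx1 (127 ± 8.70) and G6pdx (123 ± 3.80) had overlapping spreads, and Nqo1 (26.4 ± 0.968) was the sixth gene. In treated osteocytes G6pdx (173.5 ± 6.05) was above Prdx1 (109.6 ± 4.67). Keap1 and Osgin1 were the lowest pair in all 4 conditions.

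**Figure D3:**
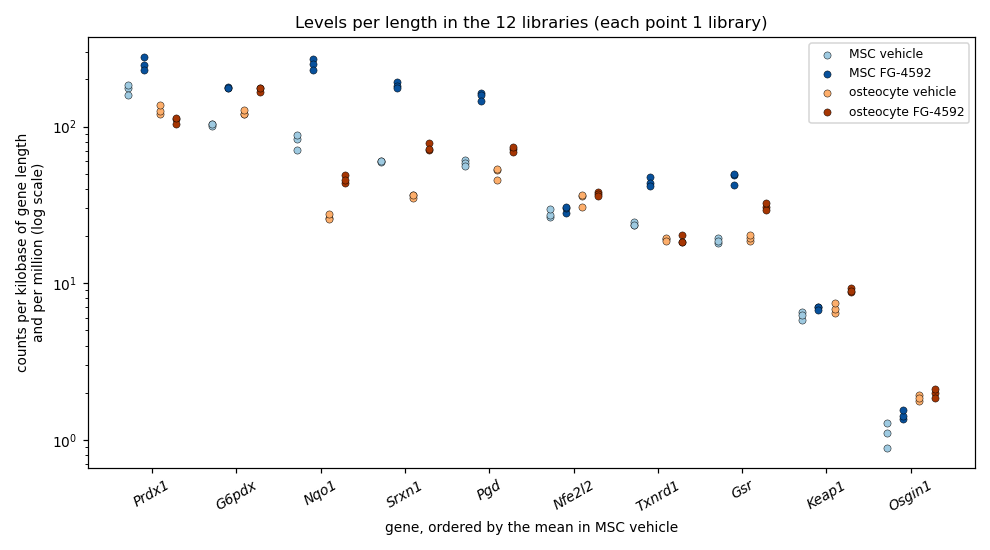
CPM per kilobase of exonic length on a log axis for the 10 genes, ordered by their mean in vehicle MSCs, with 1 point per library and 1 colour per condition. Prdx1 and Nqo1 lead in treated MSCs at means of 252 and 249.6, and G6pdx leads in treated osteocytes at 173.5.

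Ratios of functional partners within a library, per length, were also computed for 4 pairs chosen after their values were seen. Pgd to G6pdx was 0.571 ± 0.0291 in vehicle and 0.887 ± 0.0568 in treated MSCs, but 0.412 ± 0.0293 and 0.411 ± 0.007 in osteocytes (SD, n = 3). The MSC libraries did not overlap, and the osteocyte libraries did. Srxn1 to Prdx1 was 0.349 ± 0.0292 in vehicle and 0.734 ± 0.0382 in treated MSCs, and 0.286 ± 0.0193 and 0.675 ± 0.0403 in osteocytes, a 2.1-fold and a 2.36-fold higher ratio. Txnrd1 to Gsr was 1.29 and 0.946 in MSCs and 0.98 and 0.616 in osteocytes, lower with treatment in both. Keap1 to Nfe2l2 was 0.224 and 0.235 in MSCs and 0.203 and 0.244 in osteocytes. An exact two-sided permutation test of 3 against 3 libraries cannot go below p = 0.1, the value reached wherever the groups did not overlap (0.145 after adjustment over 16 tests), so none of these ratios could pass.

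The surrounding pathway was described with 5 lists of other genes, 69 in all, of which 67 were tested. In MSCs 34 of the 67 rose and 15 fell, against 17.6% and 20.4% of all genes tested. In osteocytes 32 rose and 18 fell, against 21.9% and 22% of all genes, so in both cell types the share that fell was near that of all genes. Against MSCs, 14 were higher and 32 lower in vehicle osteocytes (median −0.15), where 26% and 24.9% of all genes were. In treated osteocytes 18 were higher and 29 lower (median −0.09), where 30.5% and 25.3% of all genes were, so the share that was higher was near that of all genes. Over the 67 genes the difference between the responses was positive in 20 and negative in 18, against 13.3% and 11% of all genes. Its median was 0.036, and 0.048 over all genes tested. The other NRF2 targets mostly rose. Of 20 other targets tested, 18 rose and 0 fell in MSCs (median 0.70), and 14 rose and 3 fell in osteocytes (median 0.80), beside the same shares of all genes. Hmox1, the haem oxygenase that is also a HIF target, rose by 3.34 (SE 0.0584) and 2.54 (SE 0.0569). Gclm and Gclc, the subunits of the first enzyme of glutathione synthesis, rose by 2.15 and 1.14 in MSCs and by 1.04 and 0.99 in osteocytes. The cystine carrier gene Slc7a11 rose by 4.41 (SE 0.516) in MSCs, from a mean of 8.67 to 197.3 counts, and in osteocytes its value of 0.94 did not pass (FDR 0.144). When single libraries were dropped, the osteocyte value ran from 0.25 without osteocyte FG-4592 replicate 1 (FDR 0.736) to 1.31 without osteocyte FG-4592 replicate 2 (FDR 0.038). Its difference in response was −3.46 (−4.16 without osteocyte FG-4592 replicate 1). Ugdh, which makes UDP-glucuronate, rose by 1.52 in MSCs and 1.93 in osteocytes, and Ephx1, an epoxide hydrolase, by 1.03 and 1.76. The difference in response was positive in 6 and negative in 8 of the 20 targets, against 13.3% and 11% of all genes. It was 0.73 for Ephx1 (FDR 1.14e-06) and 0.41 for Ugdh (FDR 0.00164), and −1.11 for Gclm and −1.59 for the aldehyde dehydrogenase gene Aldh3a1, which rose by 1.02 in MSCs and fell by 0.57 in osteocytes.

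Among 12 genes that control NRF2, 6 rose and 1 fell in MSCs (median 0.18) and 7 rose and 1 fell in osteocytes (median 0.30). Of all genes tested, 17.6% rose and 20.4% fell in MSCs and 21.9% rose and 22% fell in osteocytes. Across the 12 genes the difference in response was positive in 3 and negative in 2 (median −0.01), against 13.3% and 11% of all genes. Maff, a small MAF partner of NRF2, rose from 4.85 ± 0.730 to 37.5 ± 1.17 CPM in MSCs and from 5.12 ± 0.462 to 37.9 ± 0.741 in osteocytes, by 2.95 (SE 0.0998) and 2.89 (SE 0.0992). Mafg rose by 0.88 and 0.58, and Sqstm1, whose product p62 sequesters KEAP1, by 0.59 and 0.43. Bach1, a repressor at antioxidant response elements, had values of 0.09 (FDR 0.176) and −0.01 (FDR 0.903). Its MSC value passed without MSC vehicle replicate 2 (0.15, FDR 0.0479). The related Bach2 rose in osteocytes by 0.85 (SE 0.154) and had a value of 0.18 in MSCs (FDR 0.368), and its difference in response of 0.68 (FDR 0.0278) was lost in 6 of the fits that left out a library (FDR 0.0568 to 0.0912). Cul3, the ligase scaffold that works with KEAP1, fell by 0.26 in osteocytes and differed in response by −0.45 (FDR 0.00124). Its MSC rise of 0.19 (FDR 0.0214) was lost without MSC FG-4592 replicate 1 (FDR 0.0574) or 3 (FDR 0.107). The rise was also lost with upper-quartile factors (0.16, FDR 0.0532) and with library size alone (0.11, FDR 0.186).

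Thioredoxin and peroxiredoxin genes moved in both directions, with 6 of 15 rising and 8 falling in MSCs (median −0.18) and 5 rising and 5 falling in osteocytes (median −0.05). The shares of all genes were 17.6% and 20.4% in MSCs and 21.9% and 22% in osteocytes. Across the 15 genes the difference in response was positive in 6 and negative in 1 (median 0.13), against 13.3% and 11% of all genes. Txnip, which binds and inhibits thioredoxin, had the largest change in osteocytes. It went from 206.5 ± 4.78 to 476 ± 6.25 CPM in MSCs and from 97.2 ± 15.8 to 1680 ± 173 in osteocytes. That is a rise of 1.21 (SE 0.0894) and 4.11 (SE 0.1), with a difference in response of 2.91 (SE 0.127, FDR 3.52e-10), opposite in sign to that of Txnrd1. Msra, a methionine sulfoxide reductase, rose by 1.39 and 1.79. Glrx, a glutaredoxin, fell by 1.02 in MSCs and by 0.61 in osteocytes, and the endoplasmic reticulum peroxiredoxin gene Prdx4 rose by 0.35 and 0.93. Txnrd3, another thioredoxin reductase gene, had log2 fold changes of 0.79 in MSCs, 0.03 in osteocytes (FDR 0.706) and a difference of −0.75 (FDR 1.44e-05). Sesn1, a sestrin, differed by 0.68, with a fall of 0.84 in MSCs and a value of −0.16 in osteocytes (FDR 0.0575). The osteocyte value passed without osteocyte vehicle replicate 2 (FDR 0.0391), with DESeq2 (FDR 0.0338) and with only the osteocyte libraries fitted (FDR 0.0495). It also passed with relative log expression factors (FDR 0.0423), upper-quartile factors (FDR 0.0254) and library size alone (FDR 0.0046).

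Of 15 other genes of the pentose phosphate pathway and NADPH supply, 7 rose and 2 fell in MSCs (median 0.35) and 7 rose and 6 fell in osteocytes (median −0.06), and the difference in response was positive in 1 and negative in 7. Of all genes, 17.6% rose and 20.4% fell in MSCs, 21.9% rose and 22% fell in osteocytes, and the difference was positive in 13.3% and negative in 11%. The list was not limited to enzymes that make NADPH, and rises of Mthfd1l and Me2 are not read here as rises in NADPH supply. Mthfd1l, a mitochondrial folate enzyme, rose by 2.65 in MSCs and 2.56 in osteocytes. The malic enzyme gene Me2 rose by 1.82 in MSCs and by 0.56 in osteocytes, a difference of −1.26 (SE 0.107, FDR 4.47e-07), and Me1, also a listed NRF2 target, rose by 0.65 and 0.87. Taldo1, transaldolase of the non-oxidative branch, rose by 0.66 in MSCs and differed by −0.91 (FDR 2.44e-05), and its osteocyte fall of −0.25 was lost without any of 3 libraries (osteocyte vehicle replicates 2 and 3 and osteocyte FG-4592 replicate 2, FDR 0.0577 to 0.0965). Mthfd2 differed by −0.92, with a fall of 0.68 in osteocytes and a value of 0.25 in MSCs (FDR 0.0997), which passed without MSC FG-4592 replicate 2 (FDR 0.0469). The mitochondrial isocitrate dehydrogenase gene Idh2 fell by 0.82 in MSCs and by 0.72 in osteocytes. Mthfd1 fell by 0.75 in osteocytes, and its MSC value was −0.13 (FDR 0.103). The MSC value passed with upper-quartile factors (−0.16, FDR 0.0378) and with library size alone (−0.22, FDR 0.0071).

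Of 9 genes tested that remove superoxide and peroxide, 1 rose and 4 fell in MSCs (median −0.01), where 17.6% and 20.4% of all genes did. In osteocytes 2 rose and 4 fell (median 0.05), where 21.9% and 22% of all genes did. Across the 9 genes the difference in response was positive in 4 and negative in 1 (median 0.44), against 13.3% and 11% of all genes. With so few genes the counts are given as a description. Gpx1, the main cytosolic glutathione peroxidase gene, fell from 280 ± 10.6 to 105.4 ± 2.81 CPM in MSCs (−1.41, SE 0.0778) and from 106.1 ± 15.1 to 80.6 ± 3.83 in osteocytes (−0.40, SE 0.0772). Sod3, the extracellular superoxide dismutase gene, fell by 1.14 and 0.70. Gpx8 fell by 0.79 in MSCs and differed in response by 0.97 (FDR 1.08e-07). Its osteocyte rise of 0.17 (FDR 0.0111) was lost without osteocyte vehicle replicate 2 (FDR 0.0853) and with library size alone (0.07, FDR 0.234). Cat, catalase, rose by 0.26 in MSCs and 0.72 in osteocytes, and its difference was 0.46 (FDR 0.000171).

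**Figure D4:**
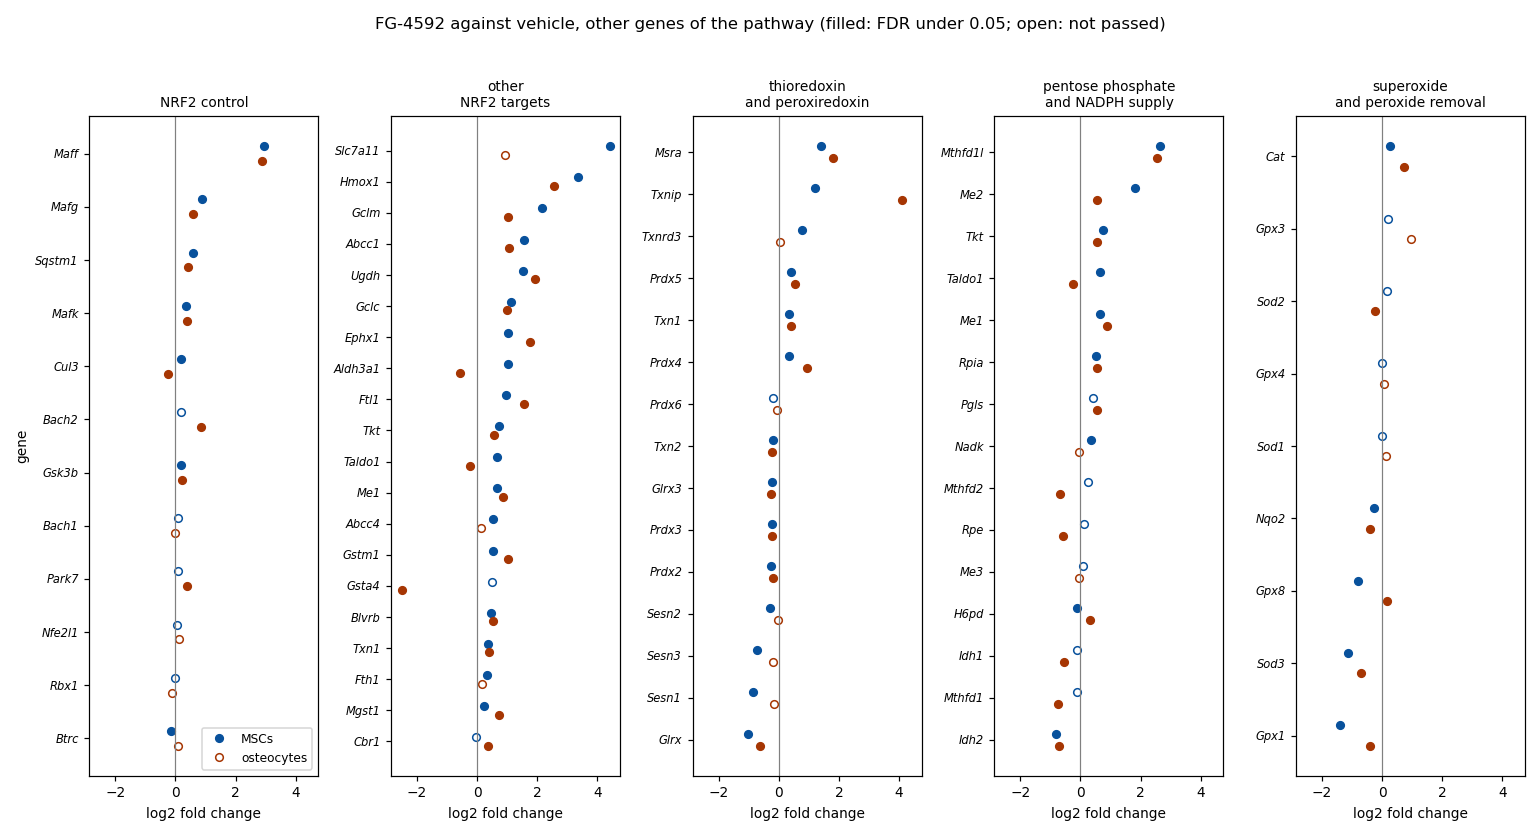
Log2 fold change of FG-4592 against vehicle for the tested genes of the 5 lists (1 panel each, genes on the vertical axis ordered by their MSC value), in MSCs (blue) and osteocytes (brown); filled points had an FDR under 0.05. Slc7a11 at 4.41 and Hmox1 at 3.34 lead the NRF2 targets in MSCs, Maff sits near 2.9 in both cell types, and Txnip reaches 4.11 in osteocytes.

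Genes with the level pattern closest to Nqo1 and Txnrd1 were found by the root mean square difference of log2 CPM, each gene centred on its own mean, over the 12 libraries and among 11546 genes. Nearest to Nqo1 were Gpr137b (0.159), Phospho1 (0.312) and Camk1d (0.356). Gpr137b stood at 62.5 ± 2.77 and 203 ± 3.35 CPM in vehicle and treated MSCs and at 25.1 ± 2.80 and 42.8 ± 1.11 in vehicle and treated osteocytes. Nearest to Txnrd1 were Ppp1cc (0.0967), Slc7a1 (0.128) and Tmem97 (0.131), with Ppp1cc at 139 ± 6.54, 222 ± 8.37, 104 ± 3.75 and 110.3 ± 1.01 CPM in that order of conditions.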

How the data were processed

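Per the labels and the study's methods, mRNA libraries (KAPA mRNA Hyper Prep, 100-base paired-end) of 12 samples were mapped to mm10 with STAR 2.7.2a. The authors deposited raw counts per Gencode M22 gene from featureCounts (Subread 1.6.2), taking uniquely mapped pairs at mapping quality 10 or higher for every gene overlapped, with no strand option named. The deposited table also holds each gene's exonic length. The study's filter (above 10 counts in 3 or more libraries) was kept. Here edgeR 4.0.16 (R 4.3.3) with TMM factors (0.9474 to 1.057) was fitted with 1 coefficient per condition by the quasi-likelihood test, since the test within edgeR is not given in the sources used here. The standard error is the log2 fold change over the square root of F. Transcripts were matched with blastn 2.17.0 on Gencode M21 (100 bases or more at 95% identity). The floor of 3 counts was 0.0447 to 0.0545 CPM.

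The 10 genes and all lists were chosen with earlier results of these data known. From each list the text names the 3 largest changes that passed the test in either response or in their difference, where the highest condition averaged 100 counts or above, and always Gclc, Gclm, Slc7a11, Hmox1, Bach1, Txnip, Sqstm1 and 5 HIF targets. The ratios, the markers singled out and further values of named genes were added after the values were seen. Symbols on more than 1 row (Gstp1, Nadk2, Nnt, Pdpn, Txnrd2) were left out of the lists. Nothing says whether libraries of a condition came from separate cultures, so p-values measure the spread between libraries, which may be technical. No batch is labelled. Replicates differed by more than sampling noise (chi-square per degree of freedom 9.885 to 37.69). Alternatives covered scaling, filter, test (likelihood ratio, DESeq2 1.42.0), libraries in the fit, a replicate block and each library left out.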

Additional observations from a re-analysis of the deposited data

Results flagged for a closer look

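The response to FG-4592 differed between MSCs and osteocytes in 7 of the 10 genes, by the test of the difference itself (edgeR's quasi-likelihood test, osteocyte response minus MSC response on the log2 scale). The differences were −0.92 for Pgd, −0.89 for Txnrd1, −0.82 for Nqo1, −0.75 for Prdx1, −0.66 for Gsr, −0.59 for Srxn1 and −0.28 for G6pdx. In Txnrd1 the osteocyte libraries of the treatments overlapped while the MSC libraries did not, and in Prdx1 every treated library was above the vehicle libraries in MSCs and below them in osteocytes. All 7 stayed past the test in each of the 20 alternatives that give this difference. Cell type, temperature and medium changed together and cannot be told apart.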

How the results depend on the processing

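Over 21 alternative settings, 778 of 800 values of the 10 genes stayed on their side of the threshold, 17 no longer passed, 5 newly passed and 0 changed direction where called. The number of the 10 genes past the test was 7 to 9 for FG-4592 in MSCs, 6 to 7 in osteocytes, 7 to 8 and 8 to 9 between cell types in vehicle and under FG-4592, and 7 to 8 for the difference. Of the values that no longer passed, 12 were of Osgin1 (151 to 344 counts per library), 3 of Pgd and 2 of Prdx1, and all 5 that newly passed were of Keap1. With a replicate block, 7 genes passed in MSCs (Osgin1 had an FDR of 0.0662), and the other counts were equal. Deviations of same-numbered libraries from their condition means had correlations of −0.135 to 0.0543. No consistent shared deviation was seen, which does not exclude that same-numbered libraries shared a culture or day. Scaling by library size alone moved the median of all genes from −0.045 to −0.13 in MSCs and from 0.0015 to −0.096 in osteocytes. For 35 named genes that are not among the 10, the same settings, added after the data were seen, kept 2700 of 2796 values on their side and reversed 0.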
